A study of Rattus norvegicus with 24 samples.

Results

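Alox15 and the enzymes that make prostanoids and leukotrienes were followed through the left ventricle of Dahl salt-sensitive rats, a strain whose blood pressure rises on a salty diet. The group held 5 genes: Alox15, Alox5, Alox5ap, Ptgs1 and Ptgs2. Their members were all 8 probe sets that the annotation of this Affymetrix rat array assigns to those symbols, out of 8799 on the array. A probe set is a group of short probes summarised as 1 value, and the annotation gives some probe sets several symbols. The genes were chosen by the measured intensities of Alox15, which stood out between high salt and control hearts at 15 weeks, so the values of that comparison are given as a description, with no test.

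Every rat was Dahl salt-sensitive, reached the laboratory at 5 weeks of age and entered its regimen at 6 weeks of age. Controls were sedentary and ate normal chow. The exercise groups ran on a treadmill each day for 6 weeks, of which the first 3 weeks built up the load and the next 3 held it at 16 m/min, a 5 degree incline and 90 min a day, and this regimen served as the model of physiologic hypertrophy. The high salt groups ate chow with 6% NaCl, the model of pathologic hypertrophy. The titles give 8 groups of 3 arrays: all 3 regimens were sampled at 3 weeks and again at 6 weeks, and 15 weeks had only sedentary controls and salt-fed rats. From what moment those weeks run is not stated. Nor do the labels state that arrays stem from different animals, so a p-value here reflects array-to-array spread, which may be technical.

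The deposited table held 24 columns but 22 distinct arrays. At 3 weeks, the control columns numbered 2 and 3 matched the exercise columns numbered 2 and 3 in all 8799 values, and no other pair of columns matched in more than 31. These 2 arrays are called here the arrays with 2 labels. They were left out of the main fit, which used 20 arrays, and counted once each as non-salt arrays at 3 weeks, where control, exercise and 2-label arrays made 1 group of 4. RNA quality differed between groups: the signal of GAPDH at its 3' end over that at its 5' end, which rises as RNA breaks down, was 1.58, 2.48 and 3.99 in the 6-week controls. It ran from 1.09 to 1.58 in the 15-week controls and from 0.989 to 1.18 in all other arrays. The tissue label fitted the 8 myocyte markers on the array, none of which was at 0 in any array and whose intensities summed to 176526 or more in each. In bulk tissue, fewer cells of a type and less RNA per cell cannot be told apart.

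Arachidonic acid, once released from membranes, is oxidised along several routes. Alox15 encodes 12/15-lipoxygenase, which puts oxygen on arachidonic and linoleic acid and is known from eosinophils, macrophages and maturing red blood cells, where it helps clear mitochondria. Alox5 encodes 5-lipoxygenase, which starts leukotriene synthesis in white blood cells with the help of Alox5ap, the membrane protein that presents the substrate. Ptgs1 and Ptgs2 encode the constitutive and the inducible cyclooxygenase, which make the precursor of prostaglandins, prostacyclin and thromboxane.

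Alox15 was the gene of the 5 whose intensity moved over the widest range, and both of its probe sets were far higher in high salt hearts at 15 weeks than in any other array. At the probe set L06040_s_at the high salt arrays of 15 weeks read 9031.7, 6028.7 and 6758.0. The controls of that week read 104.0, 38.6 and 125.9. The ratio of the means was 81.3, and the difference was 5.87 ± 0.35 (SE) on the scale log2(intensity + 40) used throughout, where the added 40 understates the change of dim probe sets. At the second probe set, S69383_at, the high salt arrays read 7458.0, 7259.7 and 6272.2 and the controls 456.0, 463.0 and 410.6. The ratio of the means was 15.8 and the log2 difference 3.86 ± 0.21. Among the 6555 probe sets bright enough to test, these were the highest and the 4th highest log2 difference between the 2 groups. Of the 5 tested member probe sets, these 2 lay without overlap above the controls, as did 8.38% of all tested, and 7.15% of all tested were called in either direction. These values chose the gene and carry no p.

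**Figure D1:**
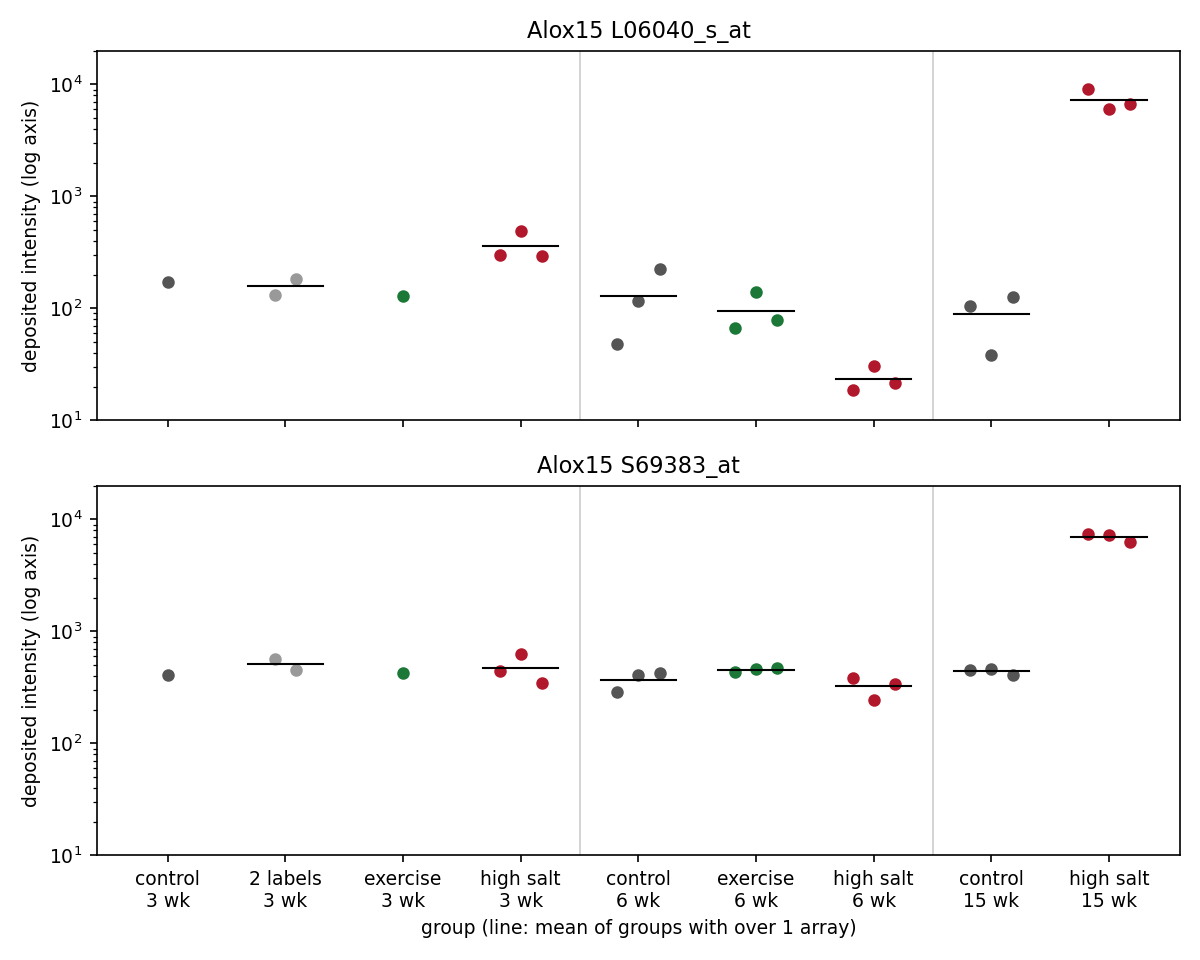
Deposited intensity (log axis) of the 2 Alox15 probe sets in each of the 22 distinct arrays by group; each point is 1 array and each line the mean of a group with more than 1 array. Both probe sets stand at 6028.7 or more in the 3 high salt arrays of 15 weeks, and L06040_s_at is lowest in the 3 high salt arrays of 6 weeks, between 18.6 and 30.7.

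Below that level the 2 Alox15 probe sets did not run together. L06040_s_at varied between weeks within the high salt diet: it read 298.0, 492.2 and 292.0 at 3 weeks and 18.6, 30.7 and 21.4 at 6 weeks. The high salt hearts of 3 weeks were therefore above every array outside high salt at 15 weeks, and those of 6 weeks below every other array of the series. S69383_at read 447.4, 625.5 and 347.9 at 3 weeks on high salt and 384.3, 245.0 and 341.4 at 6 weeks, with ranges that overlap. Its 19 arrays outside high salt at 15 weeks all lay between 245.0 and 625.5. Over those 19 arrays the Pearson correlation of the 2 probe sets was 0.54, and over all 22 it was 0.94, a description only because the 15-week high salt arrays lie far from the rest.

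By group mean, L06040_s_at ran from 7273 in high salt at 15 weeks to 361 in high salt at 3 weeks, 154 in non-salt hearts at 3 weeks, 129 in control at 6 weeks, 94.9 in exercise at 6 weeks, 89.5 in control at 15 weeks and 23.6 in high salt at 6 weeks. The 4 groups in the middle of that order overlapped one another from neighbour to neighbour, while the top 2 and the last overlapped no neighbour. S69383_at had high salt at 15 weeks at 6997 and every other group mean between 324 in high salt at 6 weeks and 474 in high salt at 3 weeks. Apart from high salt at 15 weeks, all neighbours in that order overlapped.

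At 6 weeks, Alox15 by L06040_s_at and Ptgs1 were the member probe sets that fell in high salt hearts against controls. Of the 5 member probe sets tested, 0 rose and 2 fell at an adjusted p under 0.05, where 14.3% of all tested probe sets were called in either direction and 7.72% downward. These 2 were also the ones that lay wholly below the controls, as did 20.2% of all tested. The median change of the 5 was -0.18 against -0.15 for all tested probe sets, a median that quantile normalization moved to -0.04. For L06040_s_at the control values were 47.8, 115.6 and 224.8, against 18.6, 30.7 and 21.4 on high salt, and the groups did not overlap. Its change was -1.28 ± 0.35 (limma adjusted p = 0.018, n = 3 and 3). All 3 high salt values were under 38.8, the level below which a probe set's mean kept it out of the tests, so the ratio of 5.49 between the means rests on dim values. S69383_at showed no such fall, at -0.18 ± 0.21 (limma adjusted p = 0.62).

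That fall in L06040_s_at did not hold in every setting. With the GAPDH ratio as a covariate it was -0.17 (limma adjusted p = 0.96), and against the single-label controls of 3 and 15 weeks it was -1.15 (limma adjusted p = 0.17). The covariate also widened the median SE over all tested probe sets, from 0.26 to 0.43. Leaving out control replicate 2, control replicate 3 or high salt replicate 3 raised limma's adjusted p to 0.056, 0.13 and 0.06, and a fit of only those 2 groups gave 0.07. The GAPDH ratio separates the 6-week controls from the arrays they are compared with, so RNA quality and group cannot be told apart here.

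After exercise neither Alox15 probe set was called against the 6-week controls. L06040_s_at read 66.7, 139.2 and 78.9, within the control range, a change of -0.22 ± 0.35 (limma adjusted p = 0.74). S69383_at read 434.9, 462.4 and 471.7 against control values of 285.8, 404.7 and 421.7, so all 3 exercise arrays were higher, by 0.29 ± 0.21 (limma adjusted p = 0.43). Across the 5 tested member probe sets exercise against control gave 0 calls in limma, where 7.81% of all tested probe sets were called, and 2 had an unadjusted p under 0.05. One probe set lay wholly above the controls and 1 wholly below, against 10.9% and 17.6% of all tested.

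High salt and exercise hearts of 6 weeks, neither of which carries the raised GAPDH ratio, were set against each other; the SE still comes from all 20 arrays. L06040_s_at was lower in all 3 high salt hearts, by -1.05 ± 0.35 (limma adjusted p = 0.51), a ratio of means of 4.03. That ratio rests on the same dim high salt values, all under 38.8. S69383_at was also lower in all 3, by -0.47 ± 0.21 (limma adjusted p = 0.66). No member was called in limma, although these 2 had an unadjusted p under 0.05, and 0.0153% of all tested probe sets were called. Without overlap, 2 of 5 member probe sets lay lower, against 7.89% of all tested.

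At 3 weeks, L06040_s_at was higher in every high salt heart than in every non-salt heart. The 4 non-salt arrays read 170.4 (control), 131.3 and 183.7 (2 labels) and 129.4 (exercise), against 298.0, 492.2 and 292.0. The change was 1.02 ± 0.30 (limma adjusted p = 0.26, n = 3 and 4), and it missed the threshold. In a fit of only the 2 groups compared the same difference had a limma adjusted p of 0.035. S69383_at showed a ratio of means of 1.02. Of all tested probe sets 0.153% were called at 3 weeks and of the 5 member probe sets 0 in limma, 1 of them with an unadjusted p under 0.05. Those that lay wholly above the non-salt arrays were 2 of 5, against 6.1% of all tested.

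The drop of L06040_s_at from 3 to 6 weeks of high salt was added as a comparison after its values had been seen. Its difference of means uses no control array and no array of 15 weeks, while its SE comes from the spread in all 20 arrays. The change was -2.63 ± 0.35 (limma adjusted p = 0.00097, n = 3 and 3), with a ratio of means of 15.3 and no overlap. All 3 values of 6 weeks were under 38.8, the limit for testing, so that ratio rests on dim values. Of all tested probe sets 0.0763% were called, 5 in number and all lower at 6 weeks. Beside Alox15 these were Nr1d1 and Dbp (2 probe sets), which encode clock-controlled transcription factors, and Hba-a3, an alpha globin. Without overlap, 1 of the 5 member probe sets lay lower at 6 weeks, against 6.12% of all tested. The call of Alox15 held in all alternatives run, with changes from -3.44 to -1.87, and the 6 that left out 1 array gave -2.74 to -2.40. All of these use the arrays whose values prompted the comparison, so the p and the calls are no independent support. S69383_at changed by -0.48 ± 0.21 (limma adjusted p = 1), so the 2 Alox15 probe sets differ in size here too.

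**Figure D2:**
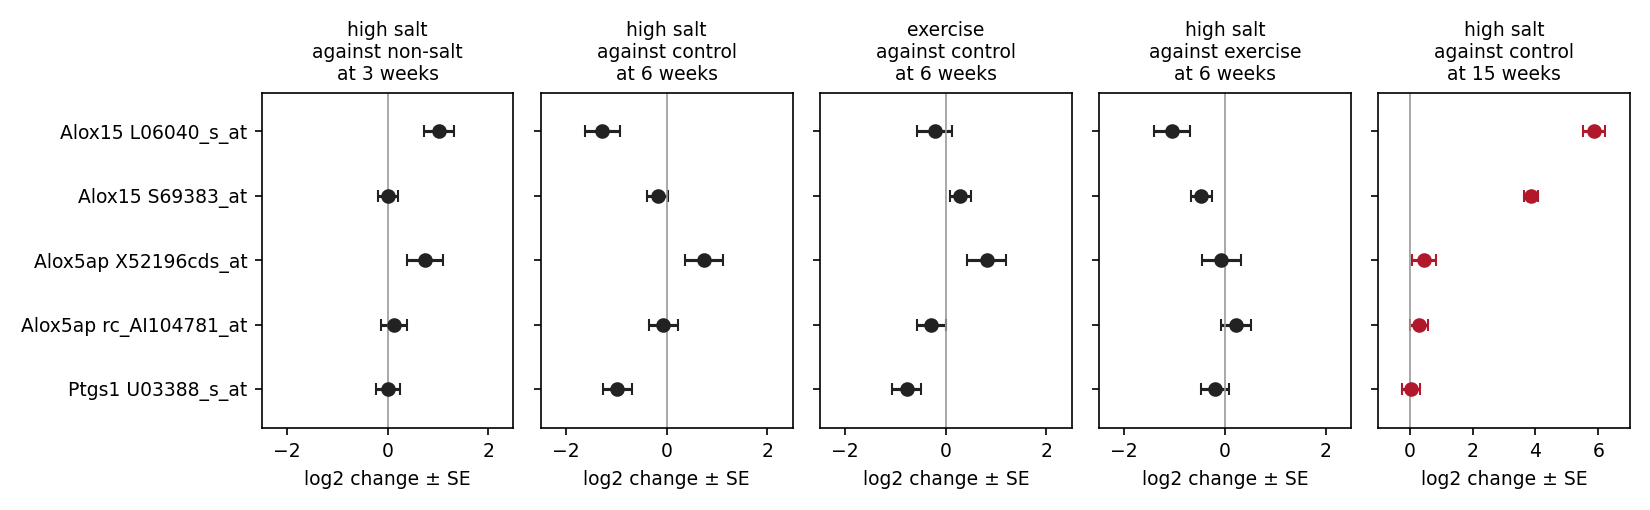
Log2 change ± SE of the 5 tested member probe sets in 5 comparisons; the 15-week panel, in red and with its own axis, is the comparison that chose Alox15. Only the 2 Alox15 probe sets leave the range from -2 to 2, at 15 weeks, with 5.87 and 3.86.

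Alox5 was dim in every group. Its only probe set, J03960_at, lay between 8.9 and 60.1 over the 22 arrays, with high salt at 15 weeks at 15.8, 26.9 and 32.4 and its controls at 14.6, 18.6 and 24.8. Those ranges overlap, as did those of the groups compared at 3 and 6 weeks. Its mean of 6.03 on the log2 scale was under the limit of 6.30 for testing, so it was not tested.

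Alox5ap, the partner of 5-lipoxygenase, was measured above that limit by 2 probe sets, and neither was called in any comparison tested, that of 15 weeks not being one of them. At X52196cds_at, the 15-week high salt hearts read 85.6, 218.2 and 299.8 and the controls 150.9, 110.0 and 110.0, so that 1 high salt heart lay below all controls. The log2 difference was 0.45. At 6 weeks the controls read 93.7, 78.0 and 273.0, the exercise hearts 144.8, 289.0 and 395.1 and the high salt hearts 289.2, 295.5 and 167.7. Control replicate 3 lay inside the treated ranges, and the changes were 0.74 ± 0.38 for high salt and 0.81 ± 0.38 for exercise (limma adjusted p = 0.21 for each). Both comparisons share these controls.

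At 3 weeks all 3 high salt hearts, with 311.2, 310.9 and 241.0, lay above the non-salt arrays, of which the highest was the exercise array with 228.7. That change was 0.74 ± 0.36 (limma adjusted p = 0.62). The second Alox5ap probe set, rc_AI104781_at, stayed between 39.6 and 180.7 in all arrays, and its groups overlapped in every comparison. Its change in high salt at 6 weeks was -0.069 ± 0.29 (limma adjusted p = 0.91), on the other side of 0 from X52196cds_at. Over 22 arrays the 2 probe sets had a Pearson correlation of 0.53, so they track the gene only in part.

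Ptgs1, the constitutive cyclooxygenase, was higher in the 6-week controls than in both treated groups of that week. The controls read 276.1, 285.7 and 390.8, high salt hearts 170.2, 118.0 and 132.6, and exercise hearts 189.4, 168.2 and 142.7. Neither treated group overlapped the controls. Against control the change was -0.98 ± 0.28 in high salt (limma adjusted p = 0.022, n = 3 and 3), a ratio of means of 2.26, and -0.78 ± 0.28 after exercise (limma adjusted p = 0.084), a ratio of 1.90. High salt against exercise gave -0.20 ± 0.28 (limma adjusted p = 0.97), and the 2 groups overlapped.

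The controls of the other weeks read 215.2 for the single-label control of 3 weeks and 133.2, 213.3 and 299.0 at 15 weeks, a range that overlaps the 6-week controls. Against these the 6-week high salt hearts differed by -0.47 (limma adjusted p = 0.50). Once the GAPDH ratio entered as a covariate, the high salt change was -0.27 (limma adjusted p = 0.90) and the exercise change -0.03. Without control replicate 3, high salt replicate 2 or high salt replicate 3 limma's adjusted p was 0.11, 0.08 and 0.071. At 3 weeks high salt read 141.5, 269.2 and 203.4 against 164.9 to 236.5 in non-salt hearts, and at 15 weeks 136.0, 274.7 and 251.1, with a log2 difference of 0.039. Among the comparisons run, those of Ptgs1 without overlap were the ones against the 6-week controls, the arrays with the highest GAPDH ratios. RNA quality and group cannot be told apart there, and the cause was not tested.

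Ptgs2, the inducible cyclooxygenase, lay below the limit at both of its probe sets, at a mean of 6.29 and 5.84 against 6.30 on the log2 scale. L25925_s_at, just under it, ranged from 17.2 to 98.8. Its highest value was in high salt replicate 1 of 6 weeks, whose companions read 33.2 and 24.2. At 15 weeks it read 28.0, 54.3 and 31.2 on high salt and 36.8, 52.4 and 57.6 in controls, and the groups overlapped. S67722_s_at lay between 5.3 and 56.2, and its highest value came from the same array as that of L25925_s_at.

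**Figure D3:**
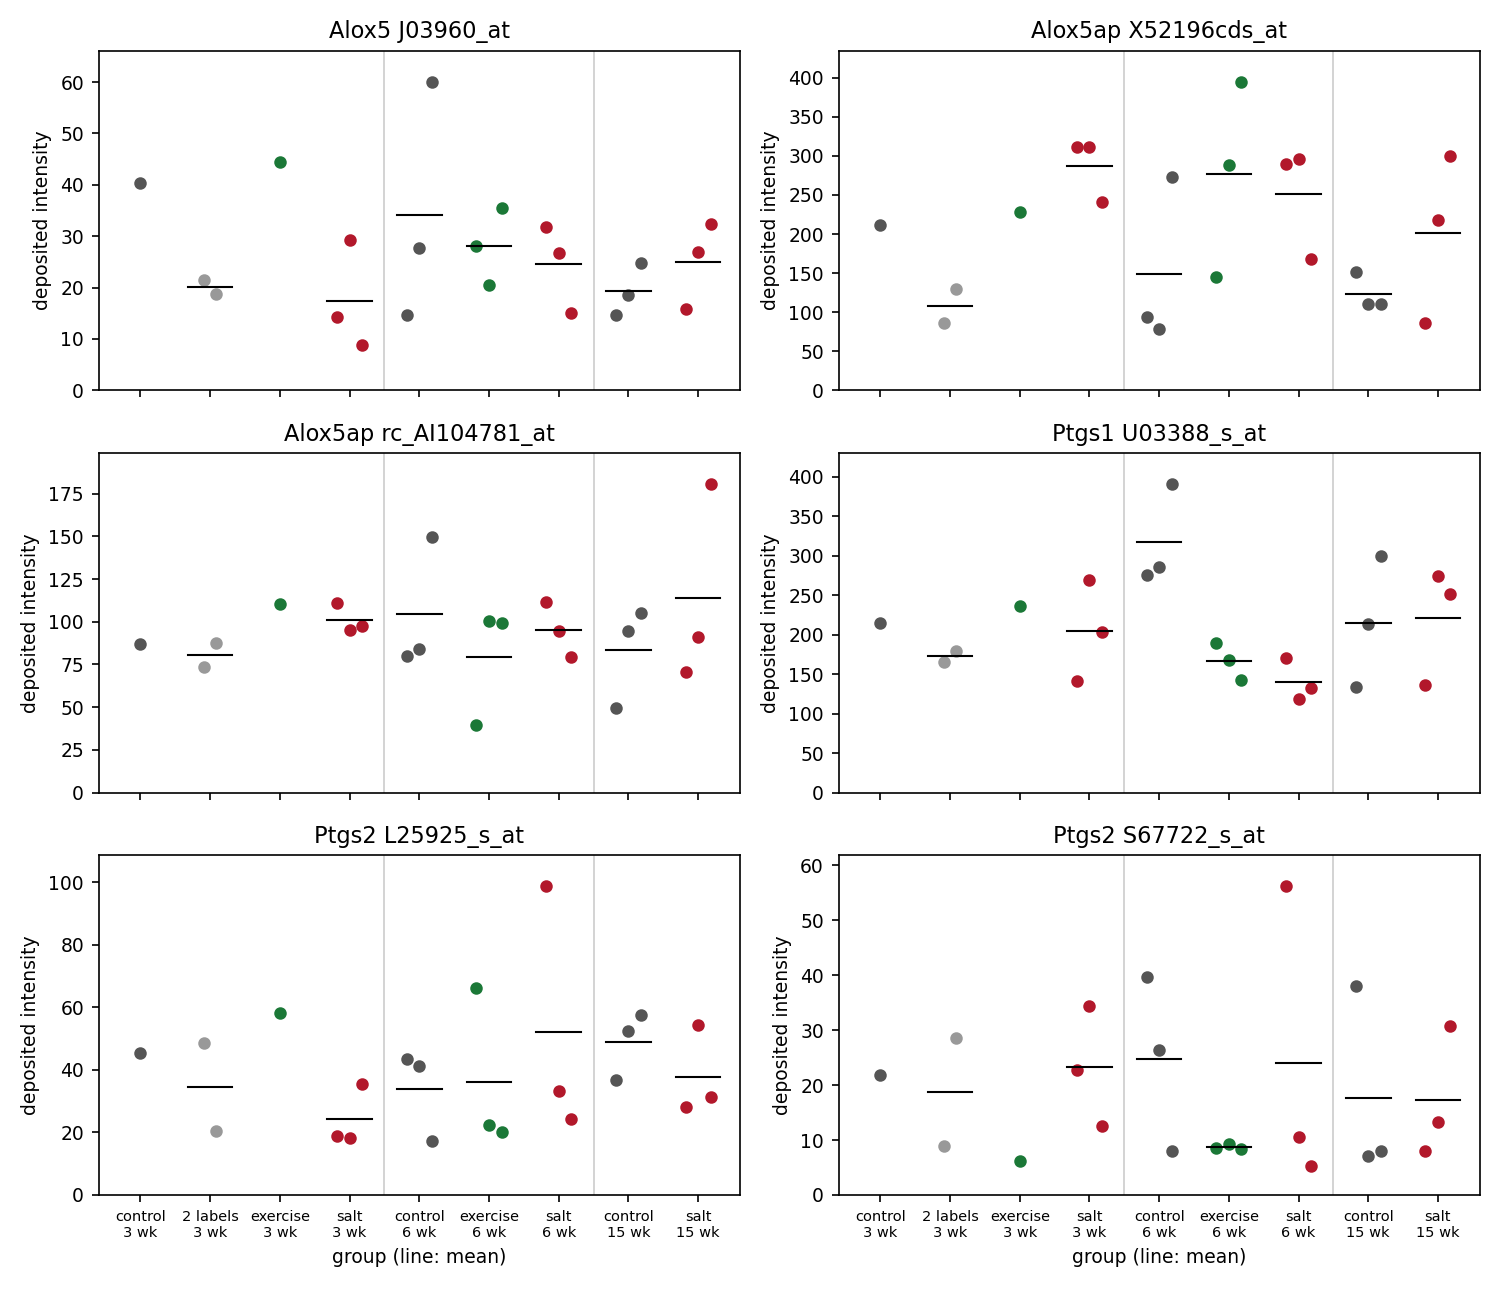
Deposited intensity of the 6 probe sets of Alox5, Alox5ap, Ptgs1 and Ptgs2 in each distinct array by group; each point is 1 array, each line a group mean, and each panel has its own linear axis from 0. The group mean of Ptgs1 is highest in the controls of 6 weeks, which span 276.1 to 390.8, and the other probe sets overlap between most groups.

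The sequences before the start of the 2 cyclooxygenase genes are shown as a description. Whether they bear on the intensities of these genes was not tested. RefSeq entries on build GRCr8 matched 3 of the 5 members, Ptgs1, Ptgs2 and Alox5. Alox15 and Alox5ap are named only. The 250 bases before each start follow, both from the + strand, Ptgs1 at chr3:39981169-39981418 and Ptgs2 at chr13:64713813-64714062. Capitals mark any match, on either strand, to the TATA box letters TATAAA, the E-box CACGTG or the GC box GGGCGG.
Ptgs1: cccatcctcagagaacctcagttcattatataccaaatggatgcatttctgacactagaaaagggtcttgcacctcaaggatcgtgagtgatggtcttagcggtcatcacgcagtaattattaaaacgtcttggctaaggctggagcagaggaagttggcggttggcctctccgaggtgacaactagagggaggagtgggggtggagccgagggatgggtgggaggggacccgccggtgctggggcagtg
Ptgs2: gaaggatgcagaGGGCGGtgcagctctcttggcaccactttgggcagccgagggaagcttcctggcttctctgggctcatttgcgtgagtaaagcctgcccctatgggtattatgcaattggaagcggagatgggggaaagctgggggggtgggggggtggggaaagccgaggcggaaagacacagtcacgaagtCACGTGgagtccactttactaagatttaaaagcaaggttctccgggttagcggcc
Ptgs2 held 1 CACGTG and 1 GGGCGG, and Ptgs1 none of the 3 motifs. Among 33469 rat promoters of this length, 5.59% held CACGTG, 30.5% GGGCGG and 12.9% TATAAA. The motifs do not overlap each other here, and a match is a description of letters only. The share of G and C was 54.4% in Ptgs1, 57.2% in Ptgs2 and 62.8% in Alox5, against a median of 51.2% over all promoters.

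Around the members, 82 genes were listed by role, 67 of the eicosanoid pathway and 15 of signals known to act on the member genes, of which 53 are on the array and 44 were bright enough to test. The list counts only genes other than the members, each by its brightest tested probe set. At 15 weeks of high salt, 2 of the 44 rose and 3 fell, 11.4% of the list where 7.15% of all tested probe sets were called, and their median change was 0.00 against -0.04 for all. None of the 6 genes of arachidonate release passed, among them Pla2g4a, the cytosolic phospholipase, at 0.66 ± 0.23 (limma adjusted p = 0.098). None of the 10 cytochrome P450 enzymes, the 5 genes of leukotriene synthesis and cleavage or the 6 of eicosanoid removal passed either. At an unadjusted p under 0.05 in limma there was 1 gene of release and 1 of removal.

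Ptgis and Ptgir, chosen by their calls from the synthase and the receptor lists, were lower in the 15-week high salt hearts. Ptgis, prostacyclin synthase, read 304.0, 402.0 and 506.2 against 796.3, 915.0 and 917.9 in controls and fell by 1.07 ± 0.23 on the log2 scale (limma adjusted p = 0.006). No high salt value reached the control range, and the call held in all alternatives run. Ptgir, the prostacyclin receptor, read 156.6, 263.8 and 308.2 against 355.2, 667.7 and 432.8 and fell by 0.89 ± 0.24 (limma adjusted p = 0.026). Its call was lost without control replicate 2, control replicate 3 or high salt replicate 1, where limma's adjusted p was 0.18, 0.057 and 0.15. A fit of only the compared groups gave 0.14, the covariate 0.052 and all 24 columns 0.098.

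Ptgfr, the receptor for prostaglandin F2-alpha, was higher in those hearts. It read 958.5, 1074.0 and 1159.8 against 615.9, 555.1 and 527.0 and rose by 0.86 ± 0.23 (limma adjusted p = 0.025), with both other probe sets of the gene on the same side. Leaving out control replicate 2 or 3 or high salt replicate 2 or 3 gave limma adjusted p-values of 0.086, 0.088, 0.055 and 0.088, and the covariate 0.055. The other 2 calls lay among the signals listed for their known action on these genes. Nfkbia, the inhibitor that holds NF-kappa-B in the cytoplasm, rose by 0.96 ± 0.28 (limma adjusted p = 0.045), and Nr3c1, the glucocorticoid receptor, fell by 0.81 ± 0.24 (limma adjusted p = 0.042). Leaving out any 1 of the 6 arrays ended the call of Nfkbia, and leaving out any but control replicate 1 that of Nr3c1, with limma adjusted p-values up to 0.16.

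**Figure D4:**
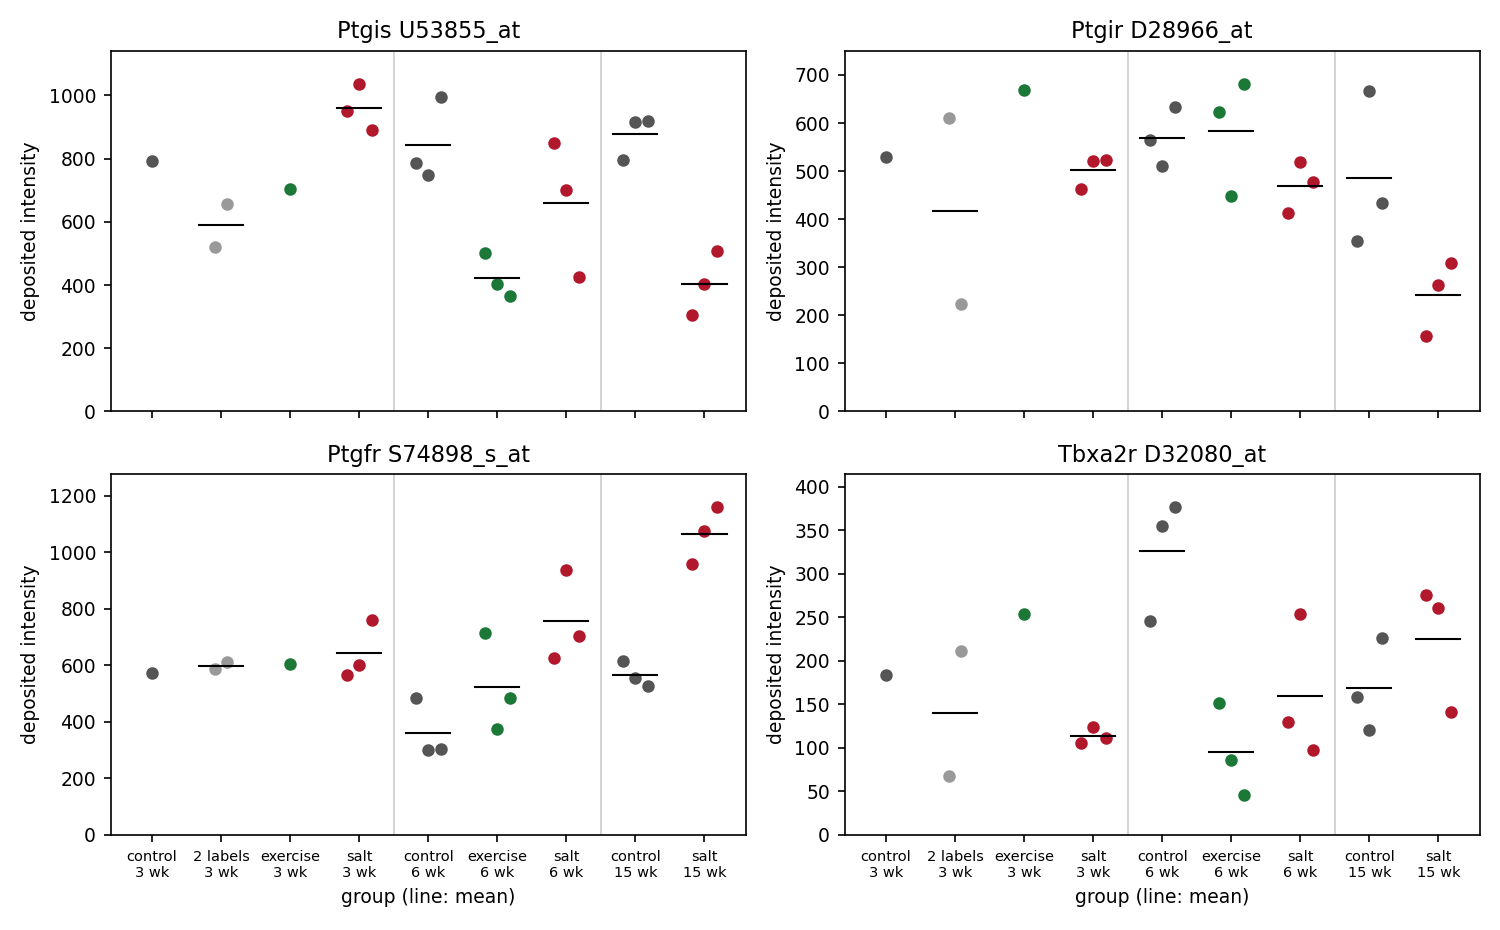
Deposited intensity of Ptgis, Ptgir, Ptgfr and Tbxa2r in each distinct array by group; each point is 1 array, each line a group mean, and each panel has its own linear axis from 0. In high salt at 15 weeks Ptgis and Ptgir lie below, and Ptgfr above, all 3 controls of that week.

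Interleukins that are known to induce Alox15 in white blood cells act through Il4r and Stat6. Il13 changed by -0.20 ± 0.32 (limma adjusted p = 0.82), Il4r by -0.15 ± 0.23 (limma adjusted p = 0.81) and Stat6 by -0.66 ± 0.30 (limma adjusted p = 0.22) at 15 weeks. These 3 genes are named for that background and not for their values.

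At 6 weeks, 2 of the 44 list genes rose in high salt and 0 fell, 4.55% of the list against 14.3% of all tested probe sets. Ptgfr read 626.0, 938.3 and 703.8 against 482.7, 300.0 and 303.4 in controls, a rise of 1.0 ± 0.23 (limma adjusted p = 0.0068), and Mgst3, a microsomal glutathione transferase, rose by 0.92 ± 0.26 (limma adjusted p = 0.022). With the GAPDH covariate the changes were 0.39 and -0.018, and against controls of 3 and 15 weeks 0.37 and 0.34, with no call in either case. Without control replicate 2 or 3 or high salt replicate 3 the limma adjusted p of Mgst3 was 0.056, 0.14 and 0.10. After exercise 0 rose and 2 fell, 4.55% against 7.81% of all tested. Ptgis read 502.1, 402.7 and 364.1 against 787.4, 746.9 and 994.1 and fell by 0.93 ± 0.23 (limma adjusted p = 0.015). Tbxa2r, the thromboxane receptor, read 151.4, 86.2 and 46.4 against 245.5, 354.7 and 376.5 and fell by 1.50 ± 0.32 (limma adjusted p = 0.0065). The covariate and the controls of other weeks ended both calls, with Ptgis at -0.59 and -0.96 and Tbxa2r at -1.13 and -0.71. That of Ptgis was also lost without control replicate 3 or exercise replicate 2 or 3, at limma adjusted p-values of 0.085, 0.057 and 0.07.

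No list gene was called in high salt against exercise at 6 weeks, in high salt at 3 weeks or in high salt at 6 against 3 weeks. At an unadjusted p under 0.05 in limma these held 4, 7 and 3 genes. The change on high salt differed between 15 and 6 weeks for 0 of the 44 genes in the limma interaction, where 1.51% of all tested probe sets were called, and 8 genes had an unadjusted p under 0.05. The smallest adjusted p was that of Nfkbia, with a difference of 1.42 ± 0.40 (limma adjusted p = 0.082), and Ptgis differed by -0.69 ± 0.32 (limma adjusted p = 0.30).

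The probe sets most like Alox15 over the 22 arrays, by Pearson correlation with S69383_at, were those of Slc4a1 (0.93), Alas2 (0.93), Ncam1 (0.93), Emb (0.92) and Gch1 (0.87). Slc4a1 encodes the band 3 anion exchanger of red blood cells and Alas2 the first enzyme of their heme synthesis. Without the 3 high salt arrays of 15 weeks the same correlations were 0.19, 0.26, 0.29, -0.26 and 0.15, so the likeness rests on those arrays. For Alox5ap by X52196cds_at they were C1qb (0.81), Cstb (0.78) and Cast (0.75), and without those 3 arrays 0.85, 0.80 and 0.82. C1qb encodes a chain of complement C1q that macrophages make. For Ptgs1 they were Cp (0.78), Mia (0.78) and Odc1 (0.78), and 0.82, 0.77 and 0.81 without those arrays. Alox5 and Ptgs2 were too dim for this comparison.

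Red blood cell transcripts were also higher in the 15-week high salt arrays. At 15 weeks 4 of the 7 red blood cell markers on the array, of 19 listed, rose in high salt hearts, among them Alas2 by 2.16 ± 0.25 (limma adjusted p = 2.2e-05) and Slc4a1 by 1.94 ± 0.20 (limma adjusted p = 7.3e-06), although 1 of the other 2 Slc4a1 probe sets had the opposite sign. Of all tested probe sets 7.15% were called in either direction. The count of 4 was 2 without high salt replicate 3 and 3 or 4 without any other 1 array. Alas2 and Slc4a1 were called in all of these fits. The markers' summed intensity was 55658 to 74059 in high salt and 32366 to 46216 in controls. Most of it came from the beta globins Hbb, 25294.9 to 32759.8 in high salt, and Hbb-b1, 20898.5 to 32699.3, so the sums mainly follow these genes. Rhag overlapped the controls, at 109.1 to 145.4 against 96.2 to 138.9. Epb41 did too, at 580.6 to 877.8 against 526.2 to 824.8. At 3 weeks the sums were 35232 to 41580 in high salt and 23444 to 26886 in non-salt hearts, and at 6 weeks 22849 to 29385 in high salt, 29705 to 36227 in controls and 26176 to 30774 after exercise. On high salt, the sums and L06040_s_at were both above the non-salt or control arrays at 3 and 15 weeks and below the controls at 6 weeks. Between weeks, the sums of the 15-week controls overlapped those of high salt at 3 weeks. L06040_s_at read 38.6 to 125.9 in those controls and 292.0 to 492.2 in high salt at 3 weeks. Slc4a1 averaged 554 in non-salt and 426 in high salt hearts at 3 weeks and 410.0 in high salt at 6 weeks. Alas2 averaged 998.5, 1344.2 and 962.4 in the same 3 groups. No red blood cell marker was at 0 in any array, and their part in the Alox15 values was not tested.

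Hba-a3, the red blood cell gene called with Alox15 between 3 and 6 weeks, read 1306.9, 1123.6 and 1147.2 in high salt at 3 weeks, 446.7, 478.1 and 418.1 at 6 weeks and 1857.0, 1632.4 and 2686.8 at 15 weeks. The controls read 862.7, 700.1 and 1042.8 at 6 weeks and 916.7, 1120.1 and 1062.5 at 15 weeks. Those of 15 weeks lay just below high salt at 3 weeks, which L06040_s_at did not share. Hba-a3 was picked for that call, so its fall between 3 and 6 weeks was fixed by the choice. Hba-a3 rose by 0.99 ± 0.20 against non-salt hearts at 3 weeks (limma adjusted p = 0.039) and fell by 1.34 ± 0.23 from 3 to 6 weeks (limma adjusted p = 0.015). The first call was lost whichever of the 7 arrays was left out, with limma adjusted p-values of 0.064 to 0.27, and with no filter on low values (0.058). The second was lost in 5 of 6 such fits, up to 0.16, and held without high salt replicate 1 of 6 weeks. Over the 19 arrays without high salt at 15 weeks, a set chosen after the values were seen, its correlation with L06040_s_at was 0.61, the 27th highest of 5358 named probe sets. The highest of them was Soat1, which esterifies cholesterol, at 0.79. Alas2 stood at 0.56 and Slc4a1 at 0.02.

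**Figure D5:**
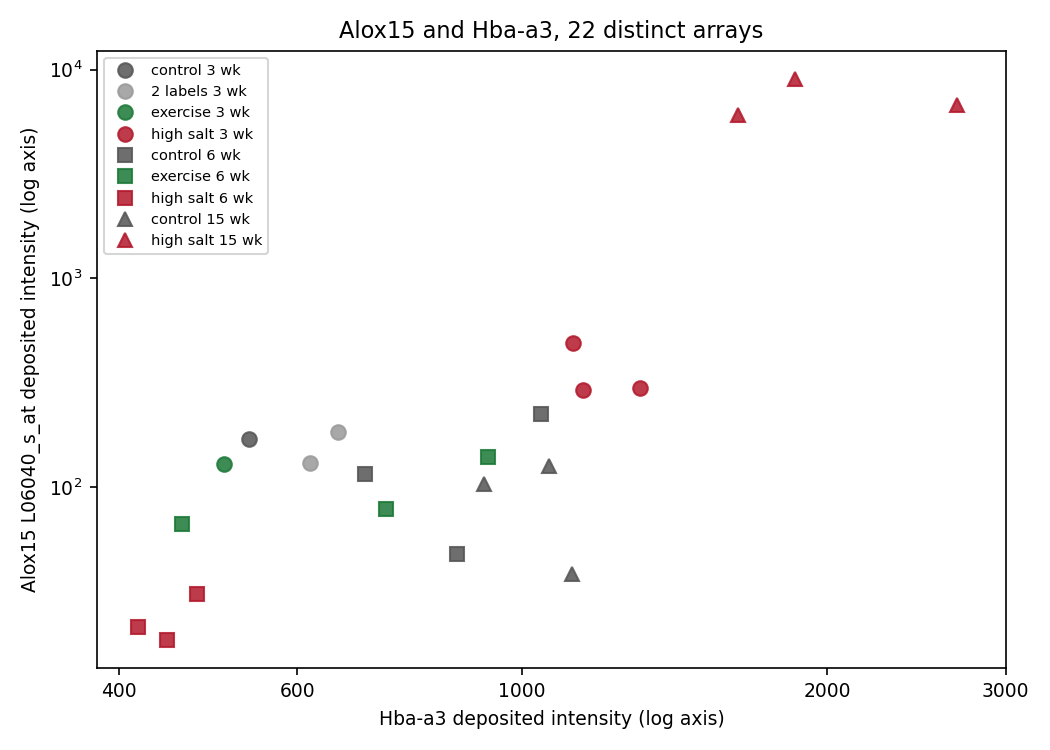
Deposited intensity of Alox15 at L06040_s_at against that of Hba-a3 (both log axes) in the 22 distinct arrays; colour gives the regimen and the marker shape the week. The high salt arrays fall in 3 separate places, lowest at 6 weeks, higher at 3 weeks and highest at 15 weeks on both axes. The 15-week controls read 916.7 to 1120.1 for Hba-a3, just below high salt at 3 weeks, but 38.6 to 125.9 for Alox15.

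Among markers of white blood cells, 2 of the 4 tested neutrophil markers, S100a8 and Cxcr2, were called higher at 15 weeks. Of all tested probe sets 7.15% were called in either direction. S100a8 rose by 1.94 ± 0.36, reading 106.1 to 434.0 in high salt and 23.3 to 43.5 in controls. It passed the limit for testing through those high salt arrays and was under it without high salt replicate 1 or 3. Its p is therefore not given, and its place in the count of 2 rests on the same values. Cxcr2 rose by 1.06 ± 0.32 (limma adjusted p = 0.049), reading 32.2 to 123.9 in high salt and 8.5 to 26.2 in controls. Those control values were all under 38.8, the limit for testing, so the change rests on dim values. Whether Cxcr2 too passed the limit only through the high salt arrays was not examined. The call of Cxcr2 was lost when any array but high salt replicate 3 was left out, up to a limma adjusted p of 0.17. The summed level of 6 markers was 577 to 1374 in high salt and 270 to 483 in controls. None of the 6 tested macrophage and monocyte markers was called in limma (1 at an unadjusted p under 0.05), with sums of 3293 to 5816 and 2660 to 4189. The 2 eosinophil markers on the array, Prg2 and Ccr3, were dim, summing to 28.9 to 40.7 in high salt and 22.7 to 41.6 in controls, so neither was tested. No tested mast cell, platelet or lymphocyte marker was called at 15 weeks, nor had an unadjusted p under 0.05 in limma. At a share of 7.15% over all tested, the lack of a call among so few markers does not show an unchanged cell type. No marker of any list was at exactly 0 in any array, and the part of these cells in the Alox15 values was not tested.

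No gene directly beside Alox15 in the RefSeq order of rat protein-coding genes had a tested probe set. The 6 genes taken were the nearest with a tested probe set on either side. They lay 4 to 9 genes before Alox15 and 2 to 13 after it. Of these, 0 were called in limma at 15 weeks, where 7.15% of all tested probe sets were called, and 0 had an unadjusted p under 0.05. With so few genes, that count is near the share of all tested. Arrb2, a beta-arrestin 2 genes away, changed by -0.37 ± 0.22 (limma adjusted p = 0.38), and Chrne, a subunit of the acetylcholine receptor, by 0.076 ± 0.31 (limma adjusted p = 0.94).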

How the data were processed

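Total RNA of left ventricle had been hybridised to arrays, deposited as 24 columns of 22 distinct arrays. The authors deposited 1 linear intensity per probe set and array. With 2% trimmed, column means of the deposited intensities ran from 500.767 to 501.021, so no further scaling was applied; how they were summarised is not given in the sources used here, and no detection calls were used. The number of arrays limits the precision.

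After 59 control probe sets were left out, intensities were taken as log2(intensity + 40), 40 being the rounded 25th percentile of all values. The 6555 of 8740 probe sets at or above the 25th percentile of mean level were tested. Group means were estimated over 20 arrays (22 for the 3-week comparison) in limma 3.58.1 (R 4.3.3) with an intensity trend, Benjamini-Hochberg adjustment over all tested probe sets and a call at adjusted p under 0.05. The fit was also run on simulated data with independent normal noise. These held no differences in RNA quality, so that run does not bear on the calls given here. The array annotation gave 1 symbol for 7018 probe sets, several for 308 and none for 1473. Named were all member probe sets, every called list gene, and the 5 or 3 genes most like a member; the others are named with the reason beside them. The members and lists were chosen with earlier results of these data known. Replicate numbers of the titles did not pair the arrays.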

Additional observations from a re-analysis of the deposited data

Results flagged for a closer look

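Alox15 at L06040_s_at went opposite ways in high salt hearts of 6 and 15 weeks. At 15 weeks every high salt array lay above every control, with a log2 difference of 5.87, and at 6 weeks every high salt array lay below every control, with a change of -1.28. The difference between the weeks was not tested, because the 15-week values chose the gene. The second probe set, S69383_at, did not share the fall at 6 weeks.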

How the results depend on the processing

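The 15-week Alox15 difference at S69383_at, 3.86, was 3.70 with a pseudocount of 100 and 3.81 to 3.94 with 1 array left out. The GAPDH covariate took the member calls of high salt at 6 weeks from 2 to 0, controls of 3 and 15 weeks to 0 and a fit of only the compared groups to 1, and leaving out 1 array gave 0 to 2. All 24 columns took those of exercise from 0 to 1 (Ptgs1, limma adjusted p = 0.047), and only the compared groups those of 3 weeks from 0 to 1. List calls at 15 weeks went from 5 to 3 with no filter, with the covariate and with only the compared groups, and to 1 to 5 with 1 array left out. At 6 weeks, high salt list calls went from 2 to 0 with the covariate, 1 with only the compared groups and 0 with the other controls (1 to 7 with 1 array left out), and exercise list calls from 2 to 0 with the covariate and 0 with the other controls (1 to 6). The interaction gave 0 to 3. The cause of these shifts was not tested.

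Several signs turned, one of them of a called gene, Mgst3 at 6 weeks (0.92). For high salt at 6 weeks, Alox5ap rc_AI104781_at was 0.075 with quantile normalization, 0.71 with the covariate, 0.14 with the other controls and -0.19 to 0.14 with 1 array left out; S69383_at was 0.22 and Mgst3 -0.018 with the covariate. For exercise, L06040_s_at was 0.95 and rc_AI104781_at 0.54 with the covariate, and L06040_s_at -0.63 to 0.17 with 1 array left out. For high salt against exercise, X52196cds_at was 0.0066 with quantile normalization and -0.41 to 0.20 with 1 array left out, and rc_AI104781_at -0.052 to 0.36. At 3 weeks S69383_at ran from -0.20 to 0.19 and Ptgs1 from -0.18 to 0.21, and for high salt at 6 against 3 weeks rc_AI104781_at from -0.15 to 0.019 and X52196cds_at from -0.32 to 0.028.

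Same-numbered arrays correlated between -0.226 and 0.132, so the numbers are a label only. With the replicate block, calls over all probe sets went from 940 to 887 for high salt at 6 weeks, from 469 to 420 at 15 weeks and from 512 to 452 for exercise, and no member call changed; at 3 weeks S69383_at was -0.0037 and Ptgs1 -0.019 with the block.

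Over all probe sets, the covariate left 13 calls for high salt and 0 for exercise at 6 weeks (465 at an unadjusted p under 0.05 in limma), and the other controls 17 and 3. The median SE with the covariate was 0.43 for high salt and 0.44 for exercise, against 0.26 for each in the main fit, so changes in that setting are less precise. Only the compared groups gave 394, 259, 266 at 15 weeks and 100 at 3 weeks (from 10), and all 24 columns 773 for exercise. With 1 array left out, the counts behind the background shares ran from 455 to 1230 for high salt at 6 weeks, 211 to 856 for exercise, 213 to 542 at 15 weeks, 0 to 8 at 3 weeks and 54 to 294 for the interaction (99), and from 2 to 10 for high salt at 6 against 3 weeks (5). The settings of the blood cell markers were added after the data were seen.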
